A study of Rattus norvegicus with 8 samples.

Results

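Potassium channel genes were taken as all genes on a rat expression array whose symbol starts with Kcn, the root shared by the pore-forming subunits of potassium channels and many of their auxiliary subunits. The rule found 84 genes on 106 probes, out of 12553 genes and unnamed probes on 15207 probes. Each gene was followed through its brightest probe, and its position on the array (the spot row, 1 to 192) was kept beside each value. Of the 84 genes, 67 gave a signal well above background on 4 or more of the 8 arrays and entered the comparison.

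Potassium channels let potassium leave the cell and so set the resting potential, the shape of the action potential and the firing pattern of neurons. In the hippocampus, voltage-gated families (Kcna, Kcnb, Kcnc, Kcnd, Kcnh, Kcnq) repolarise soma, dendrite and axon, inward rectifiers (Kcnj) and tandem-pore leak channels (Kcnk) hold the resting potential, and calcium-activated channels (Kcnma, Kcnn) follow bursts of spikes. Serotonin opens G protein-gated inward rectifiers, built from Kcnj3, Kcnj5, Kcnj6 and Kcnj9, in hippocampal neurons through an inhibitory receptor, and fluoxetine blocks the uptake of serotonin.

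The RNA came from whole hippocampi of rats (Rattus norvegicus) aged 2 months. The 4 control samples were from rats that had been given the vehicle, 5% sucrose solution, as pups, and the 4 PNFLX samples from rats that had been given fluoxetine at 10 mg/kg. Dosing ran from postnatal day 2 to day 21 in the protocol, whereas the descriptions of single samples give last days from 21 to 28 that follow the order of the samples; the protocol was followed here. The labels name neither strain nor sex and do not say whether each sample is a separate animal. The p-values therefore set group differences against the spread between samples within a group, which may in part be technical.

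All 8 arrays sat on 1 slide, with the controls in slide row 1 and the PNFLX samples in slide row 2, so slide row and treatment cannot be told apart. In both groups samples 1 to 4 lay in slide columns 1 to 4. The 75th percentile of the signal ranged from 654.4 to 941.4 between arrays, and the share of probes well above background from 70.5 to 77.9%. Levels are given as log2 of the processed signal minus that percentile of the same array, and differences as PNFLX minus control on this log2 scale. PNFLX 4 stood apart: it held the lowest value of 20 of the 67 channel genes and the highest of 15, and the median absolute deviation of its channel values from the gene means was 0.611, against 0.17 to 0.363 in the other 7 samples. This spread was not particular to channel genes. Over all genes tested it was 0.532 in PNFLX 4, against 0.225 to 0.309 in the other 7. Of 13 listed markers of pyramidal and granule neurons 10 were measured, among them Neurod2 between 3.10 and 3.41 and Camk2a between 1.32 and 2.97. Prox1 of the same list was dim, between -6.12 and -3.74. It was well above background on 1 control array and 3 PNFLX arrays. In whole tissue, fewer cells of a type and less RNA per cell cannot be told apart.

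The probes are 60-mers, and most of the 84 channel genes (62) have 1 of them. For 16 genes the same 60-mer is spotted at 2 places, which gives each of them an internal repeat on the same array, and 6 genes have 2 different probes. The following probes are shown because the results below turn on them: those of Kcnk1, Kcnmb3 and Kcns2, whose groups did not overlap, those of Kcnab2, Kcna6, Kcnj8 and Kcnj10, which are spotted at 2 places, and that of Kcnj13, which varied between samples by far more than its groups differed. They are given in lower case, 5′ to 3′, with rn4 coordinates from the array files. All of these lie on the chromosome that RefSeq gives for the gene. The exon or untranslated region behind a probe was not annotated here.
Kcnk1, chr19:56258515.0-56258574.0, plus strand: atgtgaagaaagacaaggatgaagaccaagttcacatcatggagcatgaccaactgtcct
Kcnmb3, chr2:118625153.0-118625212.0, minus strand: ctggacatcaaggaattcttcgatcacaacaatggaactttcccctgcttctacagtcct
Kcns2, chr7:70300216.0-70300275.0, plus strand: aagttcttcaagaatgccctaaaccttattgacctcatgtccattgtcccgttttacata
Kcnab2, chr5:169636425.0-169636484.0, minus strand: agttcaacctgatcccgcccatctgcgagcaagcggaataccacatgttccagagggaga
Kcna6, chr4:163367765.0-163367824.0, minus strand: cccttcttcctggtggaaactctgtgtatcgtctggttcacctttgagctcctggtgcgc
Kcnj8, chr4:180389208.0-180389267.0, minus strand: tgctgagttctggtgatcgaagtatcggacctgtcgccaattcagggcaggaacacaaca
Kcnj10, chr13:88559200.0-88559259.0, plus strand: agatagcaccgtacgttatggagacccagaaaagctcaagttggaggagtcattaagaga
Kcnj13, chr9:86393049.0-86393108.0, minus strand: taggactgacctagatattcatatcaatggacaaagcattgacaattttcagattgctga

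The different probes of Kcnip1, a calcium-binding auxiliary subunit of Kcnd channels, are shown because they resemble each other. They overlap over 34 bases, of which the 7 in capitals differ, and the second has no position in the array files.
Kcnip1, spot row 47: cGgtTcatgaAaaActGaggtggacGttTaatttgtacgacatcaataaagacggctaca
Kcnip1, spot row 116: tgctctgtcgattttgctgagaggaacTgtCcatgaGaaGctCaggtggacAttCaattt
The log2 differences of the 2 probes were -0.13 (SE 0.19) and 0.03 (SE 0.20).

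No potassium channel gene differed between PNFLX and control rats after adjustment over all 9443 genes and unnamed probes tested. The limma test with Benjamini-Hochberg adjustment called 0 of 67 channel genes at an adjusted p under 0.05, beside 0.508% of all genes (48 genes). The smallest adjusted p of a channel gene was 0.305. At an unadjusted p under 0.05 stood 3 channel genes (4.48%): the leak channel Kcnk1 and the calcium-activated channel subunit Kcnmb3 were lower and the delayed rectifier Kcnb2 was higher in PNFLX. Over all genes that share was 12.8%, with 5.06% higher and 7.69% lower. All 4 PNFLX values lay below all 4 control values in 3 channel genes (Kcnk1, Kcnmb3 and Kcns2) and above them in 0, whereas the groups did not overlap in 11% of all genes, 4.46% higher and 6.57% lower.

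By sign alone, 27 channel genes were higher and 40 lower in PNFLX. Their median log2 difference was -0.05, and over all genes the median was -0.04 with 45.5% higher. Set against the median of all genes, 34 channel genes lay below and 33 above. Without scaling between arrays 51 channel genes were higher and 16 lower while the median of all genes moved to 0.26, and with normexp background correction 16 were higher and 51 lower while it moved to -0.39. Without scaling 11 channel genes had an unadjusted p under 0.05, all higher in PNFLX, beside 23.5% of all genes. Relative to those medians the split was again 34 below and 33 above without scaling, and 38 below and 29 above with normexp.

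The precision bounds what could have been seen. The 95% interval of the difference lay inside a 2-fold change either way for 48 of the 67 channel genes (71.6%), as for 70.4% of all genes, and inside a 1.5-fold change for 25. The median standard error was 0.21. In 5 channel genes the standard deviation within groups was above 1, among them Kcna5, Kcnh2, Kcnk3 and Kcnj13, and the intervals of these 4 reach beyond a 2-fold change.

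**Figure D1:**
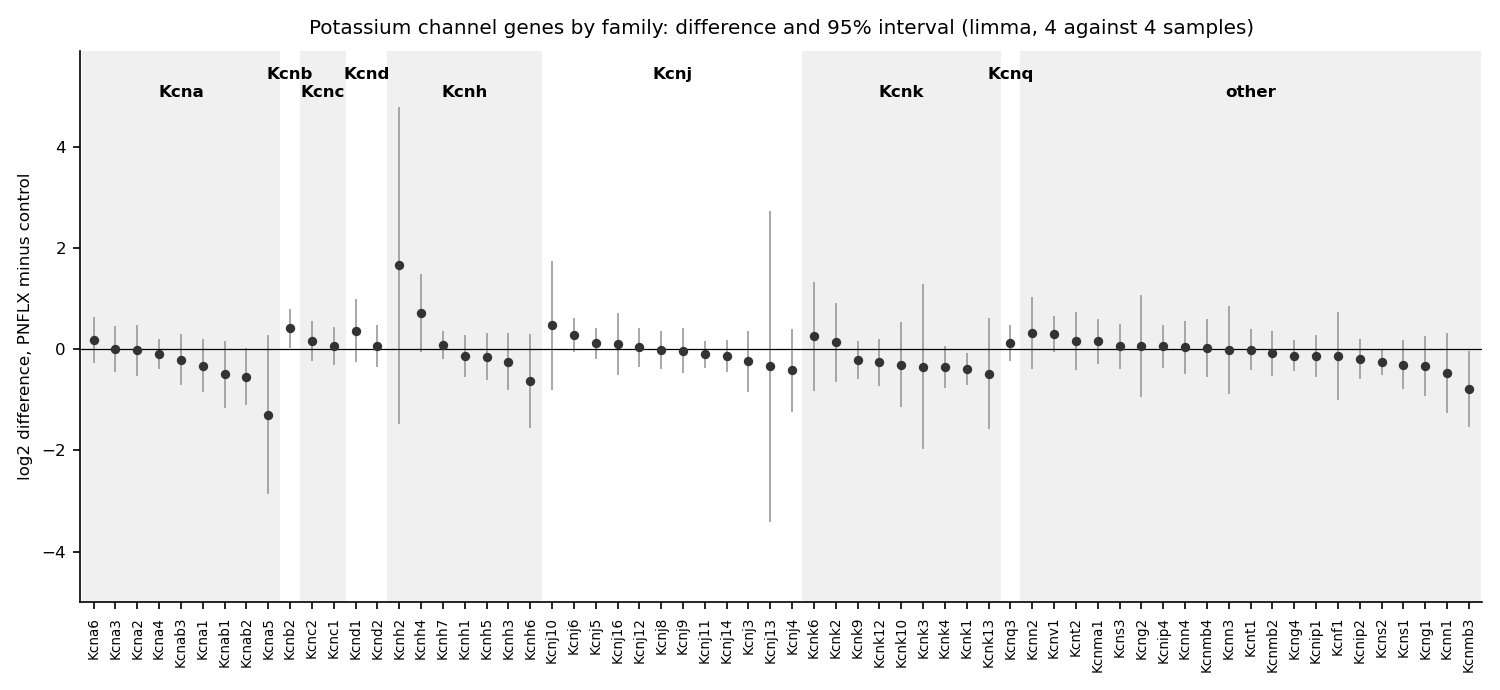
Log2 difference (PNFLX minus control, vertical axis) of 64 of the 67 channel genes tested, grouped by family, with the 95% interval from limma over 4 against 4 samples. Most points lie close to 0, the intervals of Kcnk1, Kcnb2 and Kcnmb3 exclude 0 before adjustment, and those of Kcnh2 and Kcnj13 are the widest.

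The channel gene of smallest p was a tandem-pore leak channel. Kcnk1, a leak channel of neurons and astrocytes, measured -1.40, -1.31, -1.02 and -1.42 in control samples 1 to 4 and -1.60, -1.84, -1.55 and -1.71 in PNFLX samples 1 to 4. The groups did not overlap. Its log2 difference was -0.39 (SE 0.14, 95% interval -0.71 to -0.06, limma adjusted p = 0.305), and between -0.43 and -0.30 with any 1 sample left out. Without scaling between arrays it was -0.09, where the median of all genes was 0.26. Kcnk4, a mechanically gated and lipid-gated leak channel, measured -0.93, -1.01, -0.93 and -1.05 in controls and -0.96, -1.11, -1.64 and -1.60 in PNFLX samples. PNFLX 3 and PNFLX 4 were low and the other two lay in or next to the control range, and the log2 difference was -0.35 (SE 0.18).

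Of the 9 measured Kcnk genes, 2 were higher and 7 lower, with a median of -0.31. At an unadjusted p under 0.05 stood 1 of them (11.1%), against 12.8% of all genes. Without scaling 4 were higher and 5 lower, and relative to the median of all genes 2 lay above and 7 below in both settings, against 4 and 5 with normexp. Without PNFLX 1 the split was 4 higher and 5 lower. The acid-sensitive channels Kcnk9 and Kcnk3 differed by -0.21 (SE 0.16) and -0.34 (SE 0.72), and the mechanically gated Kcnk2 by 0.14 (SE 0.34). The log2 difference was -0.31 for Kcnk10, -0.26 for Kcnk12 and -0.48 for Kcnk13, a channel known from microglia, and 0.26 for Kcnk6. Kcnk13 had 1 low value, at -2.005 in PNFLX 3, while the other 3 PNFLX samples lay between -0.13 and 0.36.

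**Figure D2:**
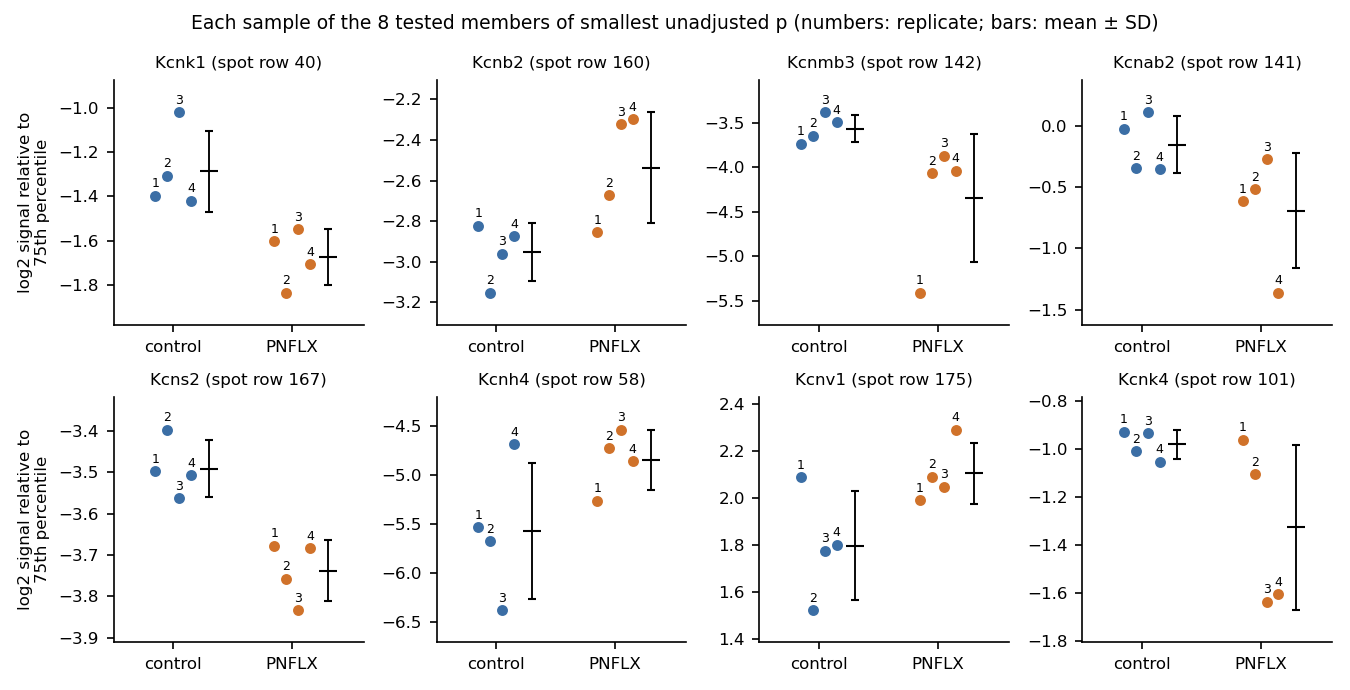
Level in each sample (log2 signal relative to the array's 75th percentile, with its own vertical scale in each panel) of the 8 channel genes of smallest unadjusted p. Points carry the replicate number and bars give the mean ± SD of 4 samples; in Kcnk1, Kcnmb3 and Kcns2 the groups do not overlap, and in Kcnab2, Kcnk4 and Kcnmb3 a few PNFLX samples lie far below the rest.

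Among voltage-gated channels, the shaker family Kcna, which sets spike threshold along the axon, had 9 measured members with its beta subunits. Of these, 2 were higher and 7 lower, with a median of -0.20, and 0 had an unadjusted p under 0.05, against 12.8% of all genes. Without scaling 5 were higher and 4 lower, and relative to the median of all genes 3 lay above and 6 below in both settings, against 4 and 5 with normexp. The pore-forming axonal subunits Kcna1 and Kcna2 differed by -0.32 (SE 0.23) and -0.02 (SE 0.22). Kcna3 and the inactivating Kcna4 were at 0.01 and -0.08.

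All 3 beta subunits, cytoplasmic proteins that bind Kcna channels and alter their inactivation and trafficking, had log2 differences below 0 at the spot used. Kcnab1 was at -0.50, Kcnab2 at -0.54 and Kcnab3 at -0.20, but the second spot of Kcnab3 gave 0.13. The value of Kcnab1, in spot row 10, was -0.21 without control 2, and -0.11 with row and column medians subtracted. Without scaling 1 of them was above 0, though all 3 were below the median of all genes, and with normexp 2 of 3 were below that median. Kcnab2 measured -0.02, -0.34, 0.11 and -0.35 in controls and -0.61, -0.52, -0.27 and -1.36 in PNFLX samples. Only PNFLX 3 lay within the control range, and PNFLX 4 was the lowest. The log2 difference was -0.54 (SE 0.25, limma adjusted p = 0.410) and its second spot gave -0.85 (SE 0.47). Without PNFLX 4 the difference of Kcnab2 was -0.32, and without scaling -0.24.

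Kcna5, a delayed rectifier better known from heart and vascular muscle, was dim and variable. It was well above background on 4 of 4 control arrays but on 1 of 4 PNFLX arrays. Its lower PNFLX values are therefore background readings, and the size of its difference is uncertain. It measured -4.85, -5.43, -5.14 and -4.89 in controls and -6.34, -8.55, -4.77 and -5.82 in PNFLX samples. PNFLX 3 was above all controls and the other 3 PNFLX samples were below them, and the log2 difference was -1.29 (SE 0.69). Without PNFLX 2 it was -0.56.

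The Kcnb delayed rectifiers carry the slow repolarising current of the soma. Kcnb2 measured -2.82, -3.15, -2.96 and -2.87 in controls and -2.85, -2.67, -2.32 and -2.30 in PNFLX samples. PNFLX 1 fell within the control range and the other 3 lay above it. The log2 difference was 0.42 (SE 0.17, limma adjusted p = 0.350), 0.25 with the row and column medians of each array subtracted, and -0.39 under normexp, where the median of all genes was also -0.39.

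The Kcnc channels let fast-spiking interneurons fire at high rates. Kcnc2 measured between -4.37 and -3.98 in controls and -4.08, -4.32, -3.76 and -3.72 in PNFLX samples, a log2 difference of 0.17 (SE 0.17). Kcnc1 measured between -1.20 and -0.84 in controls and -0.77, -0.86, -0.80 and -1.34 in PNFLX samples, so that PNFLX 4 was below and the other 3 near the top of the control range. Its log2 difference was 0.07 (SE 0.17).

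The Kcnd channels carry the A-type current of dendrites, and both measured members overlapped between groups. Kcnd1 measured -0.59, -1.39, -1.13 and -0.98 in controls and -0.12, -0.39, -0.88 and -1.21 in PNFLX samples. The first 2 PNFLX samples lay above the controls and the log2 difference was 0.37 (SE 0.27). Kcnd2 measured 1.81, 1.99, 1.71 and 1.66 in controls and 1.86, 1.62, 1.62 and 2.31 in PNFLX samples, a log2 difference of 0.06 (SE 0.18). Their auxiliary subunits of the Kcnip family were at -0.13 (Kcnip1), -0.18 with an SE of 0.17 (Kcnip2) and 0.06 (Kcnip4). A further probe named Kchip2 in the array files, which RefSeq assigns to Kcnip2, falls outside the rule by its name and was well above background on 1 array.

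The ether-a-go-go family Kcnh and the M-current family Kcnq regulate excitability near threshold. Kcnh4 was dim, at -5.52, -5.67, -6.37 and -4.68 in controls and -5.26, -4.72, -4.53 and -4.85 in PNFLX samples. Control 4 lay among the PNFLX values, and the log2 difference was 0.72 (SE 0.34, limma adjusted p = 0.421), with the opposite sign under normexp (-0.79). Kcnh6 measured -4.18, -3.62, -4.01 and -4.79 in controls and -4.77, -5.03, -3.70 and -5.59 in PNFLX samples. PNFLX 2 and PNFLX 4 lay below the controls, and the log2 difference was -0.62 (SE 0.41). Kcnh1, Kcnh3, Kcnh5 and Kcnh7 lay between -0.24 and 0.08, with an SE of 0.18 for Kcnh1 (log2 difference -0.14).

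Kcnq3, a subunit of the M-channel, measured between 0.05 and 0.58 in controls and between 0.43 and 0.72 in PNFLX samples, a log2 difference of 0.13 (SE 0.16).

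Of the 12 measured inward rectifiers, 5 were higher and 7 lower, with a median of -0.02. Among them 0 had an unadjusted p under 0.05, against 12.8% of all genes. Of the 4 subunits of serotonin-activated, G protein-gated channels, 2 were higher and 2 lower. Kcnj6 measured 0.37, 0.64, 0.42 and 0.52 in controls and 0.67, 0.72, 0.61 and 1.09 in PNFLX samples. Only PNFLX 3 fell within the control range, below control 2, and the log2 difference was 0.28 (SE 0.15, 95% interval -0.06 to 0.62), but 0.08 with row and column medians subtracted. Its second, different probe was well above background on 0 of the 8 arrays.

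Kcnj3 measured -3.84, -3.74, -4.08 and -3.41 in controls and -3.77, -3.61, -3.89 and -4.74 in PNFLX samples, a log2 difference of -0.24 (SE 0.26). PNFLX 4 was low and the other 3 lay within the control range. The probe used for Kcnj3 is mapped in the array files to a chromosome other than that of the gene in RefSeq, and the second probe, in spot row 4, gave -0.80 (SE 0.62). Kcnj9 differed by -0.03 (SE 0.19) and Kcnj5 by 0.12 (SE 0.13).

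The classical strong rectifier Kcnj4, found in forebrain neurons, measured -0.04, -0.89, -0.08 and -0.29 in controls and -1.18, -0.18, -0.08 and -1.51 in PNFLX samples. PNFLX 1 and PNFLX 4 lay below all controls and the other two inside their range, and the log2 difference was -0.41 (SE 0.36). Kcnj12 and Kcnj14, of the same subfamily, were at 0.04 and -0.14. The pore subunits of ATP-sensitive channels, which close when the cell is rich in energy, differed little: Kcnj11 by -0.10 (SE 0.12) and the vascular Kcnj8 by -0.02 (SE 0.17) at the brighter of its spots. Of the glial rectifiers that buffer potassium, Kcnj10 differed by 0.48 (SE 0.56) and Kcnj16 by 0.10.

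Kcnj13, a rectifier of the epithelium of the choroid plexus, had the second widest spread within groups of the 67 genes (pooled SD 2.24). It measured -6.38, -5.25, -3.46 and 0.22 in controls and -2.26, -4.04, -5.39 and -4.52 in PNFLX samples. Control 4 stood highest and PNFLX 1 next. The log2 difference was -0.33 (SE 1.35), and 0.98 without control 4. Ttr, the transport protein that the choroid plexus secretes, measured -4.10, -1.35, -0.44 and 5.07 in controls and 1.14, -2.11, -3.22 and -1.25 in PNFLX samples, likewise highest in control 4 and next in PNFLX 1. Of 11 choroid plexus markers listed 7 were measured, and their summed level ranged from 7.89 to 51.4 times the 75th percentile in controls and from 7.32 to 22.2 times in PNFLX samples. Otx2, Sostdc1 and Aqp1 were also highest in control 4 and next in PNFLX 1, but the remaining measured markers were not. Igf2 was highest in PNFLX 1, at 4.06 with control 4 at 2.60. Enpp2 and Folr1 were highest in control 4 but not next in PNFLX 1. Enpp2 was at 1.51 in PNFLX 1 and 1.75 in PNFLX 4, and Folr1 at -2.47 in PNFLX 1 and -2.35 in PNFLX 3. The markers' part in the values of Kcnj13 was not tested. Kcne2, an auxiliary subunit also made in that epithelium, was well above background on 3 arrays and did not enter the comparison. Its values in controls were -6.97, -6.67, -7.73 and -4.17, and in PNFLX samples -6.56, -6.89, -4.37 and -5.95, high in control 4 and also in PNFLX 3.

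**Figure D3:**
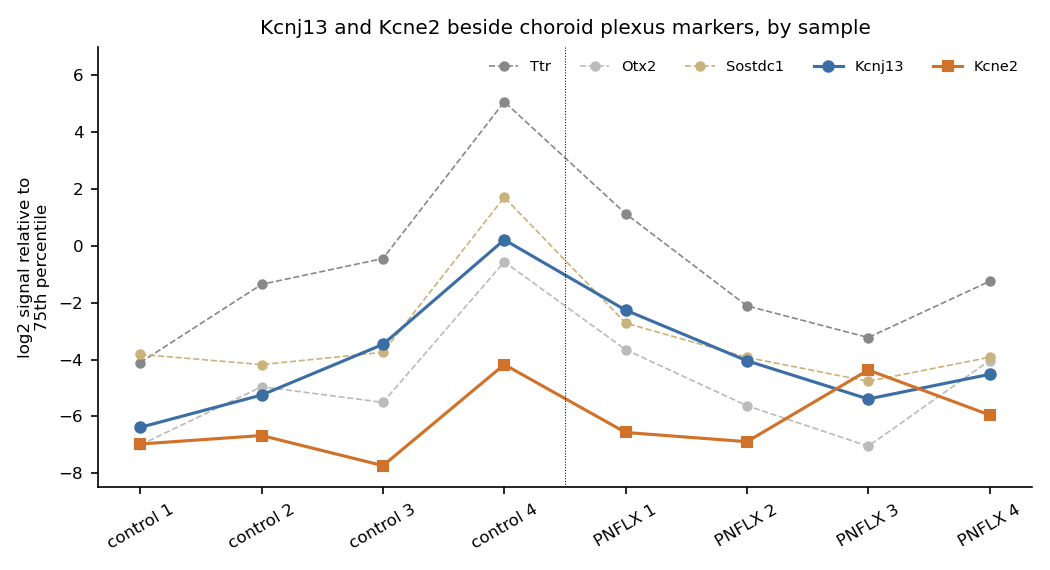
Level (log2 signal relative to the array's 75th percentile) of Kcnj13, Kcne2 and the choroid plexus markers Ttr, Otx2 and Sostdc1 in each of the 8 samples, each gene to be read across samples only. Kcnj13, Ttr, Otx2 and Sostdc1 all peak in control 4 with PNFLX 1 next, while Kcne2 is high in control 4 and PNFLX 3. The other measured markers are not drawn, and Igf2, Enpp2 and Folr1 among them do not share that order.

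Of the calcium-activated channels, the large-conductance pore subunit Kcnma1 differed by 0.16 (SE 0.19) and its neuronal beta subunit Kcnmb4 by 0.03 (SE 0.25), with Kcnmb2 at -0.08. The beta subunit Kcnmb3 measured -3.73, -3.64, -3.38 and -3.50 in controls and -5.41, -4.07, -3.87 and -4.04 in PNFLX samples. The groups did not overlap, and PNFLX 1 lay far below the other 3. The log2 difference was -0.78 (SE 0.33, 95% interval -1.53 to -0.03, limma adjusted p = 0.368), and -0.43 without PNFLX 1. The small-conductance channels Kcnn2 and Kcnn3, which carry the afterhyperpolarisation, differed by 0.32 (SE 0.31) and -0.01 (SE 0.38), Kcnn1 by -0.46 and the intermediate-conductance Kcnn4 by 0.04. The sodium-activated Kcnt1 and Kcnt2 were at -0.01 (SE 0.18) and 0.16.

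The electrically silent subunits Kcnf, Kcng, Kcns and Kcnv form no channel alone and modify Kcnb channels; 8 of 10 were measured, 3 higher and 5 lower. Kcns2 measured -3.50, -3.40, -3.56 and -3.51 in controls and -3.68, -3.76, -3.83 and -3.68 in PNFLX samples. The groups did not overlap, but the log2 difference was small, at -0.25 (SE 0.11, limma adjusted p = 0.415), and 0.05 without scaling between arrays. Kcnv1 measured 2.09, 1.52, 1.77 and 1.80 in controls and 1.99, 2.09, 2.05 and 2.29 in PNFLX samples. Control 1 lay among the PNFLX values, and the log2 difference of 0.31 (SE 0.15) was -0.04 with row and column medians subtracted. The others were Kcng1 (-0.33), Kcns1 (-0.30), Kcnf1 (-0.14), Kcng4 (-0.12), Kcng2 (0.06) and Kcns3 (0.06).

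Of the 84 channel genes, 17 were not well above background on 4 arrays, among them Kcna7, Kcna10, Kcnd3, Kcne1, Kcne2, Kcne3, Kcne4, Kcng3, Kcnj1, Kcnj2, Kcnj15, Kcnk15, Kcnmb1, Kcnq1, Kcnrg and Kcnv2. Several are known mainly from kidney, heart or other epithelia and muscle (Kcnj1, Kcnq1, Kcne1, Kcnmb1). Kcnj2, a strong rectifier expressed in brain, was well above background on 1 array at one of its 2 spots. The single probe of Kcnd3 is mapped in the array files to a chromosome other than that of the gene and was well above background on 0 arrays.

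Copies of one 60-mer at 2 places gave a check within each array. Both copies were measured for 15 channel genes, and their log2 differences had the same sign in 10, with a median gap of 0.232. Over all 1488 such probe pairs the median gap was 0.22, and it was 0.163 where both copies lay in spot rows 21 to 172 and 0.972 where a copy lay in the first or last 5 rows.

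Kcnh2, the pore subunit of the ERG channel that repolarises heart and some neurons, showed the widest gap. Its 60-mer, with 26.7% G and C and at position 6224194 to 6224253 on the plus strand of chromosome 4 (rn4), was spotted in rows 119 and 2. In row 119 it measured -2.29, -5.08, -1.81 and -6.49 in controls and -1.76, -1.14, -0.46 and -5.65 in PNFLX samples. The groups overlapped and the log2 difference was 1.66 (SE 1.37, limma adjusted p = 0.623). In row 2 the same sequence measured -7.29, -7.45, -6.38 and -7.32 in controls, where it was well above background on 0 of 4 arrays, and -0.21, -0.75, -0.42 and -0.24 in PNFLX samples. The level there was at least 53.4-fold higher in PNFLX, where the bound takes for each control array either the probe's own signal or the dimmest signal still called well above background there, whichever is higher. In a limma fit over all 15207 single probes the row 2 spot had an adjusted p of 7.34e-05, with the controls read at background, beside 46 probes called in all (0.302%; 0.217% called higher). The copies, of 1 sequence in the same 8 samples, fell on different sides of the threshold. With the copies averaged, background readings included, the adjusted p of Kcnh2 by limma was 0.049, the sole call of a channel gene under any alternative tried. The row 2 copy met the filter of 4 arrays through the PNFLX samples alone. That call therefore includes a spot admitted by its high group and is no separate test of the gene.

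The other copies lay closer. Kcna6, a further shaker subunit, measured -3.32, -3.57, -3.00 and -3.20 in controls and -3.00, -3.03, -2.78 and -3.53 in PNFLX samples in row 72, a log2 difference of 0.19 (SE 0.20). In row 156 the same 60-mer measured -2.92, -3.22, -2.84 and -3.18 in controls and -3.50, -3.61, -3.27 and -4.10 in PNFLX samples, with no overlap, and the log2 difference was -0.58 (SE 0.21, limma adjusted p over single probes 0.414). The brighter copy, in row 72, stood for Kcna6 in the comparison.

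Kcnj8 measured -0.02, 0.59, 0.08 and 0.19 in controls and 0.31, 0.15, 0.01 and 0.31 in PNFLX samples in row 12. In row 49 it measured -0.12, -0.11, 0.08 and -0.05 in controls and -0.18, -0.31, -2.84 and 0.18 in PNFLX samples. The value of PNFLX 3 differed between the copies while the other 7 samples lay within 1 log2 unit, and the log2 differences were -0.02 (SE 0.17) and -0.73 (SE 0.61).

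Kcnj10 measured -4.16, -4.50, -4.06 and -3.95 in controls and -4.34, -3.52, -1.99 and -4.92 in PNFLX samples in row 187. In row 59 it measured -4.01, -4.69, -4.11 and -4.15 in controls and -4.08, -4.32, -3.74 and -5.04 in PNFLX samples. PNFLX 3 was high in the outer row, and the log2 differences were 0.48 (SE 0.56) and -0.05 (SE 0.30). The sign also differed between the copies of Kcnab3 (-0.20 and 0.13), Kcnh1 (-0.14 and 0.07) and Kcnn4 (0.04 and -0.06). It was the same, among others, for Kcnab2, Kcnj5, Kcnj9, Kcnj12, Kcnf1, Kcnk9 and Kcns1.

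**Figure D4:**
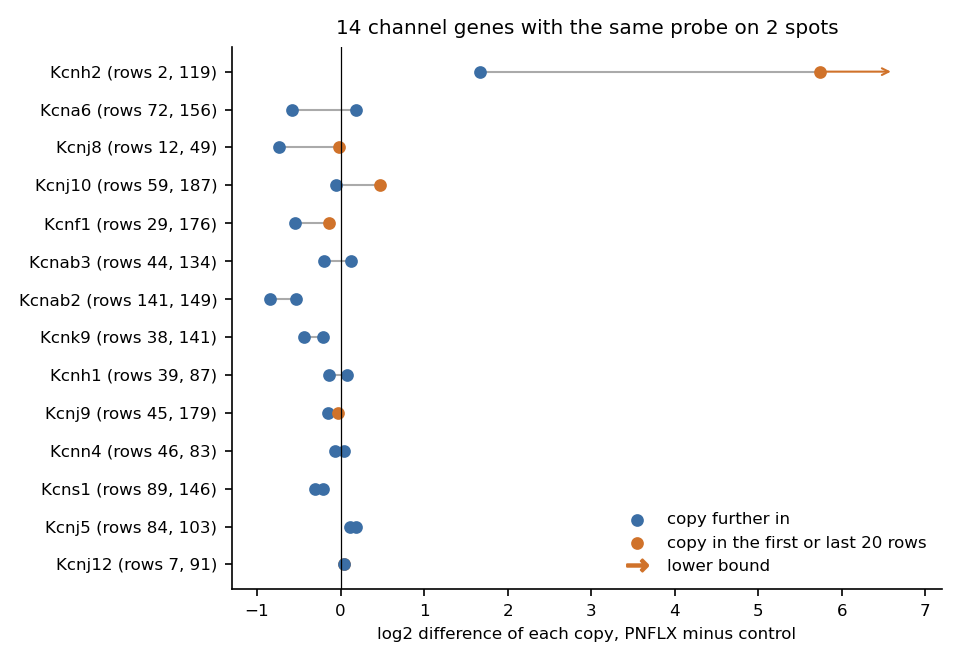
Log2 difference (PNFLX minus control) of both copies of the same probe for 14 channel genes, with a line joining the copies, the spot rows in the labels and copies in the first or last 20 rows in orange and the rest in blue. The row 2 copy of Kcnh2 is drawn at its lower bound, with an arrow, at least 4.07 log2 units from the other copy, and all the others lie within 0.768.

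Position on the array moved with the difference across all genes. The median log2 difference was 0.61 in spot rows 1 to 5, -0.05 in rows 21 to 172 and -0.62 in rows 188 to 192, and of the 48 genes called, 7 lay in rows 21 to 172, which hold 7533 of the 9443 genes. Of the channel genes, 53 lay in those inner rows, where 3 (5.66%) had an unadjusted p under 0.05 against 9.84% of all genes there. Only Kcnh3 (row 4), Kcnd1 (row 188) and Kcnk3 (row 192) lay in the outer 5 rows. After subtraction of row and column medians within each array their log2 differences moved from -0.24 to -0.78 for Kcnh3, from 0.37 to 1.47 for Kcnd1 and from -0.34 to 2.30 for Kcnk3, and 0 of 67 channel genes passed, with 0.132 (Kcnk3) as the smallest adjusted p.

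**Figure D5:**
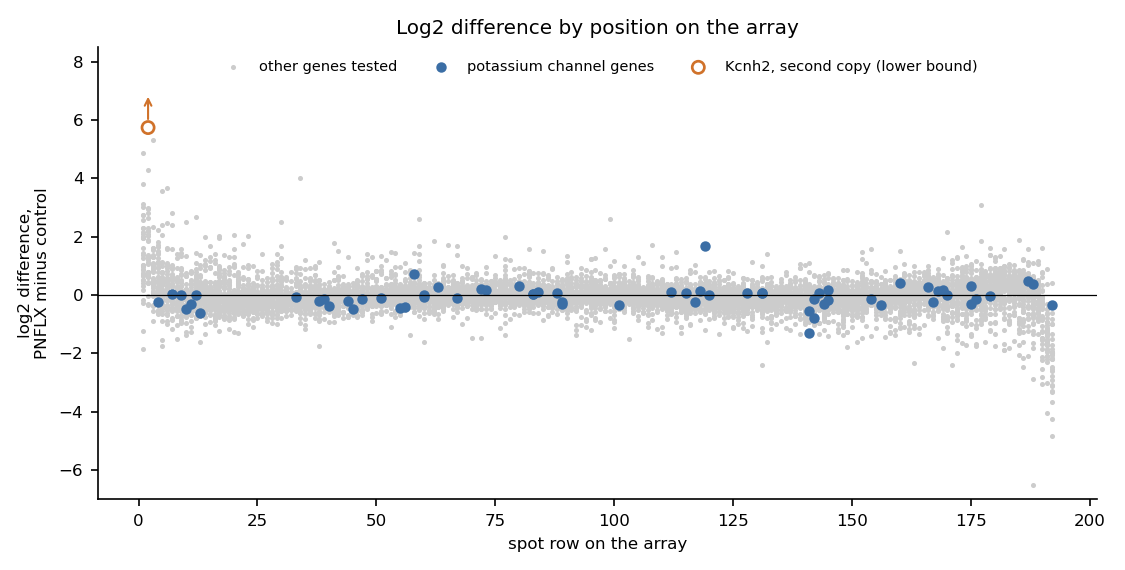
Log2 difference (PNFLX minus control, vertical axis) against the spot row of the probe (horizontal axis) for the genes tested, with 64 channel genes in blue and the second copy of Kcnh2 as an open circle at its lower bound. Other genes (grey) rise in the first rows and fall in the last, and the row 2 copy of Kcnh2 lies at 5.74 or above while its row 119 copy lies at 1.66.

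Genes that work with these channels were taken from a list of 37 partners (anchoring proteins, auxiliary subunits, G protein subunits and related channels), of which 31 were measured. Of these, 14 were higher and 17 lower, with a median of -0.12 against -0.04 for all genes, and the groups did not overlap in 8 (25.8%, against 11% of all genes). Of the 31, 1 passed the adjusted threshold, beside 0.508% of all genes. Dpp10, an auxiliary subunit of Kcnd channels in row 1, differed by 1.94 (SE 0.41), and by 0.34 with row and column medians subtracted.

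Actn2, an actin-binding anchor of Kcna and other channels, measured -1.50, -1.94, -1.76 and -2.05 in controls and -3.00, -2.55, -2.24 and -3.40 in PNFLX samples. The groups did not overlap, and the log2 difference was -0.99 (SE 0.26, limma adjusted p = 0.168) in row 29 and -0.97 after the subtraction. Amigo1, an adhesion protein that accompanies Kcnb channels, differed by -0.81 (SE 0.22) in row 182 and by -0.62 after it. No gene of the 9 cell type marker lists passed the adjusted threshold. The summed level of the 10 measured markers of pyramidal and granule neurons ranged from 86.2 to 120.2 times the 75th percentile in controls. In PNFLX samples the sum ranged from 78.7 to 88.5 times. The brightest of the 10, Nrgn in row 19, weighs most in that sum. Nrgn differed by -0.54 (SE 0.15), and by -0.26 after the subtraction. Counted by gene, 4 of these markers were higher and 6 lower, and their median was -0.09.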

How the data were processed

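Cy3-labelled RNA of 8 hippocampal samples was hybridised to single-colour custom Agilent arrays. The deposited intensity values (processed signal, mean signal and local background per spot) were made with Feature Extraction 10.5.1.1 on build rn4, per the file headers, and were not scaled between arrays. The authors' deposited log2 values were within 0.00242 of the scaled log2 values used here once each probe's median was taken off.

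Here control spots and 521 flagged outlier spots were left out, and log2 processed signal minus the 75th percentile was tested with limma 3.58.1 (R 4.3.3), over genes whose brightest probe was well above background on 4 of 8 arrays, with Benjamini-Hochberg adjustment over all 9443 genes and unnamed probes. The script was tested on simulated data. Probe symbols were matched to RefSeq for all 106 channel probes. Members, gene lists and tests were chosen with earlier results of these data known. Some items are not reported here, and members are otherwise all named. Values per sample are given for the 8 of smallest p, the 2 of smallest p per family and members whose probes differ by over 0.5, with a few others chosen after their values were seen (Kcnj13, Kcne2, Kcnk13). Of the partner and marker lists, up to 4 genes of smallest p may be named. Alternatives covered scaling, background, filter, flags, probe choice, array position, pairing, variance trend and each sample left out.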

Additional observations from a re-analysis of the deposited data

Results flagged for a closer look

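In 5 of 127 groups of 4 samples among the channel genes, 1 sample lay apart from the other 3 by more than Dixon's 95% critical value, and chance gives about 1 in 20 such groups. All 5 were PNFLX samples. PNFLX 1 was low for Kcnmb3, at -5.41 with the nearest other sample at -4.07, and high for Kcnmb4, at 2.62 with the nearest at 1.93. PNFLX 2 was low for Kcnip1, at -4.10 with the nearest at -3.51, and for Kcnk2, at 1.25 with the nearest at 2.51. PNFLX 4 was low for Kcnc1, at -1.34 with the nearest at -0.86.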

How the results depend on the processing

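No channel gene passed under any alternative except the mean over a gene's probes, under which 1 did (Kcnh2). Its row 2 copy entered that mean through the PNFLX samples alone. The number of all genes called was 48. It was 108 without scaling, 72 with quantile normalization, 68 with the mean over a gene's probes and 56 with a variance trend. It was 44 with flagged spots kept and also with the authors' deposited values. With normexp it was 27, and without the filter on dim probes 26. With probes well above background on all 8 arrays it was 25, and with row and column medians subtracted 21. It was 0 of 9086 by limma without the outer 5 spot rows and from 14 to 60 with 1 sample left out. Without those outer rows 12% of all genes had an unadjusted p under 0.05. The median log2 difference of the channel genes was -0.05; it was 0.24 without scaling, -0.49 with normexp and from -0.11 to -0.03 with 1 sample left out. Channel genes at an unadjusted p under 0.05 numbered 3 (1 higher, 2 lower). With 1 sample left out there were from 0 (without control 3) to 7 (without PNFLX 3 or without PNFLX 4), with 1 without control 2 and 6 without PNFLX 1. Over all genes the share then ran from 9.4% (without control 3) to 15.6% (without PNFLX 3). Without scaling there were 11, all higher, beside 23.5% of all genes, and with normexp 5 (3 higher, 2 lower), beside 5.69%.

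Same-numbered samples shared a slide column, and the labels name no other link between them. Their deviations from the group means correlated by 0.0104, 0.086, 0.088 and 0.0213, which cannot settle whether they were paired. The replicate block gave 5 genes called in all, 0 of them channel genes. With it 4 channel genes had an unadjusted p under 0.05, beside 11.9% of all genes. Not every sample correlated best with its own number.

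The number of arrays limits the precision, and Kcnh2 and Kcnj13 have the widest intervals.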
